A study of Bubalus bubalis with 6 samples.

Results

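The genes described here are the FOXO transcription factors and the ubiquitin ligases of muscle that are best known from muscle wasting, 10 genes in all. They were chosen by symbol: FBXO32, TRIM63, TRIM54, TRIM55, KLHL40, KLHL41, ASB2, FOXO1, FOXO3 and FOXO4 each have 1 row among the 24616 genes of the deposited gene table, and all 10 are among the 15576 genes that could be tested. Polyadenylated RNA was sequenced from water buffalo muscle stem cells (MuSCs), with 3 GM samples of proliferating cells and 3 DM samples of differentiating cells. The cells were a primary isolate from fetal longissimus muscle, digested with type I collagenase and trypsin, and no treatment or genetic change beyond the medium is given. GM samples were grown in DMEM with fetal bovine serum. DM samples were switched, when nearly confluent, to DMEM with horse serum at a lower percentage, so both the type and the amount of serum differed. The labels give neither an animal nor a day of harvest, and no sorting step is named. The labels do not say whether the 3 samples of a group were separate cultures, so p-values measure only the spread between these samples, which may be technical.

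FOXO factors are held in the cytoplasm when insulin and IGF1 signaling through AKT phosphorylates them, and they enter the nucleus when that signal falls. In adult muscle they switch on genes of protein breakdown called atrogenes, among them FBXO32 (atrogin-1, the substrate-binding F-box protein of an SCF ligase) and TRIM63 (MuRF1, a RING ligase of the sarcomere). TRIM54 (MuRF3) and TRIM55 (MuRF2) are close relatives of TRIM63 that bind microtubules and the sarcomere. KLHL40 and KLHL41 are kelch adaptors of the CUL3 ligase that stabilise thin filament proteins such as nebulin, and ASB2 is a CUL5 adaptor that directs filamins to degradation.

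Each GM sample had 36657735 to 40305237 counts on genes, and each DM sample 35615864 to 38177614. DM replicate 3 stood apart. The chi-square per degree of freedom against DM replicates 1 and 2 was 40.5 to 41.4, where other pairs of the same group gave 6.22 to 11.7. Fold changes are therefore also given without it. Of the muscle markers, MYOG, the myogenic regulator of early differentiation, rose from a mean of 52.9 to one of 167 CPM (counts scaled to library size after TMM normalization, n = 3), and the 14 tested myogenic markers included 9 called higher and 1 called lower (MYF5). DES, the muscle intermediate filament, was abundant in every sample, with 60353 to 93303 counts. Of the 11 tested fibroblast markers 7 were called higher, while POSTN, a secreted matrix protein, was lower in every DM sample (log2 change -0.93, not called, and -1.32 and called lower without DM replicate 3). The summed level of the list, mostly collagen counts, went from 38219 to 39337 CPM in GM samples to 102537 to 128691 CPM in DM samples. In bulk RNA, fewer or more cells of a type cannot be told apart from less or more RNA per cell, and this holds for every value below.

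All 10 genes were higher in DM samples than in GM samples and none was lower. Each passed the thresholds of edgeR's quasi-likelihood test, a log2 change beyond 1 in size together with an adjusted p-value (Benjamini-Hochberg) below 0.05, which 15.0% of all tested genes passed in that direction. In each of the 10 the 3 DM samples lay above the 3 GM samples, as they did for 34.5% of tested genes. The log2 changes, always DM over GM, ran from 1.15 to 2.66 with a median of 1.71, beside a median of 0.03 over all tested genes. All 10 were also called without DM replicate 3. When tested against a fold change of 2, which 8.98% of tested genes passed in this direction, 7 of the 10 were called. FBXO32 (adjusted p = 0.132), FOXO1 (0.0936) and FOXO4 (0.0775), all from edgeR, were not.

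**Figure D1:**
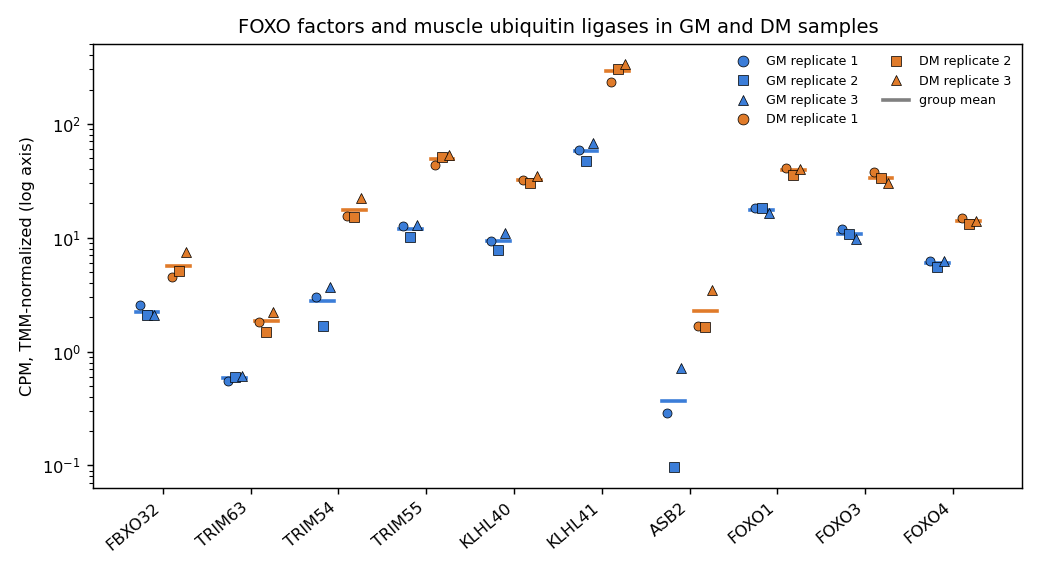
Expression of the 10 genes in each sample as CPM, counts scaled to library size after TMM normalization, on a log axis. Points are single samples (blue GM, orange DM, shape by replicate number) and bars are group means. For every gene the 3 DM samples sit above the 3 GM samples, and the GM samples of ASB2 and TRIM54 are the most spread.

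FBXO32 (ENSBTAG00000016194, chromosome 14, 17919823 to 17951894, plus strand) had 106, 87 and 79 counts in GM replicates 1 to 3 and 152, 185 and 275 counts in DM replicates 1 to 3. The groups did not overlap, and DM replicate 3 held 1.56 times the mean CPM of the other DM samples. Expression went from 2.24 ± 0.27 to 5.66 ± 1.56 CPM (SD, n = 3), a log2 change of 1.33 ± 0.22 (SE, adjusted p = 0.000361 by edgeR). Without DM replicate 3 it was 1.10, the lowest value of this gene among the fits that left out a sample.

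TRIM63 (ENSBTAG00000005085, chromosome 2, 127615050 to 127630608, plus strand) was counted at 23, 25 and 23 reads in GM samples and at 61, 54 and 83 reads in DM samples. The GM samples were almost equal and DM replicate 3 was the highest. TRIM63 rose from 0.587 ± 0.0285 to 1.84 ± 0.385 CPM, a log2 change of 1.64 ± 0.29 (SE, adjusted p = 0.000513 by edgeR), and of 1.48 without DM replicate 3. With so few reads the 95% interval ran from 1.01 to 2.28. These 2 classical atrogenes were thus low in both groups: per length, the mean of FBXO32 was 2.05 RPKM (counts scaled by gene length and by library size) in GM and 4.84 RPKM in DM samples, and that of TRIM63 was 0.346 and 1.01 RPKM. In DM samples 40.8% of tested genes had a lower RPKM than FBXO32 and 22.2% a lower RPKM than TRIM63.

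TRIM54 (ENSBTAG00000018267, chromosome 11, 72327351 to 72348528, minus strand) and ASB2 had the largest log2 changes of the 10, with no settled order: TRIM54 was at 2.66 and ASB2 at 2.64, but ASB2 was above TRIM54 with a replicate block and without GM replicate 3, DM replicate 1 or DM replicate 2. TRIM54 had 124, 70 and 140 counts in GM samples and 519, 556 and 821 counts in DM samples. GM replicate 2 was low, at 0.504 times the mean CPM of the other GM samples, and DM replicate 3 was high. Expression rose from 2.79 ± 1.02 to 17.6 ± 3.99 CPM, 6.32-fold, with a log2 change of 2.66 ± 0.26 (SE, adjusted p = 5.86e-06 by edgeR) and of 2.47 without DM replicate 3.

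TRIM55 (ENSBTAG00000021009, chromosome 14, 32164442 to 32210852, plus strand) was the most abundant of the MuRF genes. It had 526, 426 and 490 counts in GM samples and 1459, 1861 and 1966 counts in DM samples, far apart and with little spread within a group. The rise from 11.9 ± 1.49 to 49.1 ± 5.20 CPM gave a log2 change of 2.04 ± 0.11 (SE, adjusted p = 9.98e-08 by edgeR). It was 1.98 without DM replicate 3.

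KLHL41 (ENSBTAG00000010741, chromosome 2, 26780742 to 26798046, minus strand) had by far the highest level of the 10 genes. Its counts were 2467, 1950 and 2590 in GM samples and 7868, 11189 and 12369 in DM samples. It went from 58.2 ± 10.8 to 291 ± 52.3 CPM, with a log2 change of 2.32 ± 0.15 (SE, adjusted p = 3.75e-07 by edgeR) and of 2.22 without DM replicate 3. At 133 RPKM in DM samples it stood above 96.2% of tested genes, and at 28.5 RPKM in GM samples above 78.1%.

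KLHL40 (ENSBTAG00000006563, chromosome 22, 15444466 to 15451791, plus strand), the paralog that acts on the same thin filament, was counted at 390, 325 and 419 reads in GM samples and 1085, 1098 and 1280 reads in DM samples. The DM samples were close to one another. It rose from 9.42 ± 1.62 to 32.2 ± 2.30 CPM, with a log2 change of 1.78 ± 0.12 (SE, adjusted p = 5.16e-07 by edgeR). The ratio of KLHL41 to KLHL40, each in RPKM, was 7.08, 6.72 and 6.92 in GM samples and 8.12, 11.4 and 10.8 in DM samples. The groups of ratios did not overlap, and the exact two-sided permutation test gave p = 0.1, the smallest that 3 samples against 3 allow. This ratio was chosen after the values were seen.

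ASB2 (ENSBTAG00000007109, chromosome 21, 59126042 to 59160261, minus strand) was the least even of the 10. Its mean RPKM was the lowest in both groups, although its DM samples overlapped those of TRIM63. By mean CPM in DM samples TRIM63 was lower (1.84, against 2.26 for ASB2). It had 12, 4 and 27 counts in GM samples and 57, 60 and 128 counts in DM samples. The highest GM sample was 7.41 times the lowest in CPM, and DM replicate 3 was 2.08 times the mean of the other DM samples, yet the groups did not overlap. The log2 change was 2.64 ± 0.56 (SE, adjusted p = 0.00183 by edgeR), with a 95% interval from 1.40 to 3.88. It was 2.21 without DM replicate 3 and 3.53 without GM replicate 3, so its size is the least certain of the 10.

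FOXO1 (ENSBTAG00000044105, chromosome 12, 21915747 to 22005338, plus strand) had 756, 760 and 620 counts in GM samples and 1387, 1311 and 1486 counts in DM samples. It rose from 17.6 ± 1.09 to 39.0 ± 2.80 CPM, 2.21-fold. The log2 change of 1.15 ± 0.084 (SE, adjusted p = 8.09e-07 by edgeR) was the smallest of the 10 and had the smallest standard error.

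FOXO3 (ENSBTAG00000011234, chromosome 9, 42008606 to 42118673, minus strand) rose most of the FOXO genes. Its counts were 496, 448 and 368 in GM samples and 1266, 1220 and 1124 in DM samples. Here DM replicate 3 was the lowest DM sample, at 0.858 times the mean CPM of the others. Expression went from 10.8 ± 1.13 to 33.7 ± 3.57 CPM, with a log2 change of 1.64 ± 0.11 (SE, adjusted p = 3.54e-07 by edgeR), and of 1.72 without DM replicate 3.

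FOXO4 (ENSBTAG00000004879, chromosome X, 84822740 to 84831551, minus strand) was counted at 261, 232 and 237 reads in GM samples and 503, 479 and 520 reads in DM samples, with little spread in either group. It rose from 6.04 ± 0.402 to 14.0 ± 0.903 CPM, with a log2 change of 1.21 ± 0.12 (SE, adjusted p = 5.48e-06 by edgeR).

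**Figure D2:**
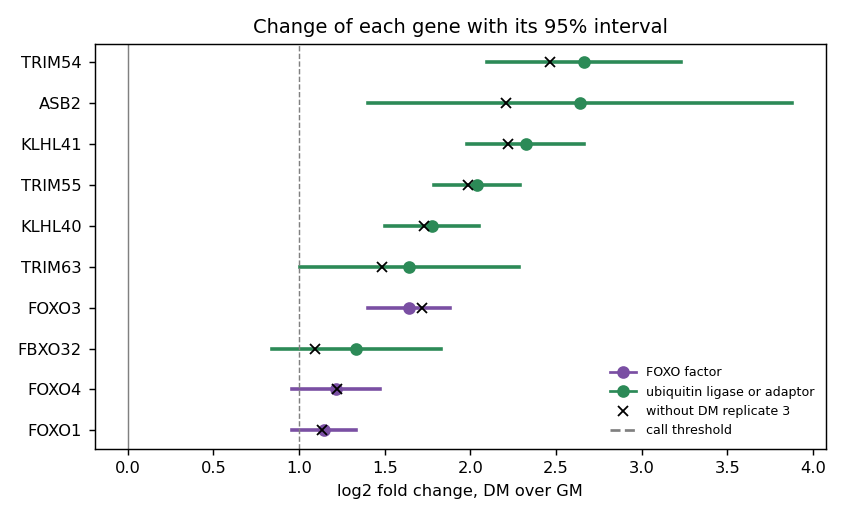
Log2 fold change of each gene, DM over GM, with its 95% interval from edgeR. FOXO genes are purple, ligases and adaptors green, crosses mark the value without DM replicate 3 and the dashed line marks the minimum of 1 for a call. The intervals of FBXO32, FOXO1 and FOXO4 reach below that line, and every cross lies above it.

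Position among the replicates was shared across the ligases. All 7 ligase and adaptor genes were highest in DM replicate 3 among the DM samples, while none of the FOXO genes was, which makes 7 of 10, beside 37.7% of all tested genes. GM replicate 2 was the lowest GM sample for TRIM54, TRIM55, KLHL40, KLHL41, ASB2 and FOXO4, 6 of 10, beside 35.2% of tested genes. The summed CPM of the myogenic markers was also lowest in GM replicate 2 (2982, against up to 3611 in the other GM samples). It was highest in DM replicate 3 (11047, against 7833 in the lowest DM sample). Most of this sum came from DES, MYH3, ACTA1 and MYLPF. MYF6, CKM, TNNT1, TNNT3 and ACTN2 were also highest in DM replicate 3. MYOD1 (2270, 2745 and 1455 counts in DM replicates 1 to 3) and PAX7 (415, 400 and 226) were lowest there. MYOG, MYF5 and CDH15 were highest in DM replicate 2. The part of these markers in the values of the 10 genes was not tested.

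Per length, the order of the genes differed between the groups in places. In GM samples the mean RPKM fell from KLHL41 (28.5) to FOXO1 (9.72), FOXO3 (5.54), TRIM55 (5.41), KLHL40 (4.12), FBXO32 (2.05), TRIM54 (1.83), FOXO4 (1.81), TRIM63 (0.346) and ASB2 (0.154). The sample ranges of TRIM55 overlapped with those of FOXO3 above it and KLHL40 below it, and those of FBXO32, TRIM54 and FOXO4 overlapped in turn. In DM samples the order was KLHL41 (133), TRIM55 (20.8), FOXO1 (20.1), FOXO3 (16.1), KLHL40 (13.2), TRIM54 (10.8), FBXO32 (4.84), FOXO4 (3.92), TRIM63 (1.01) and ASB2 (0.893). Overlapping neighbours were TRIM55 and FOXO1, KLHL40 and TRIM54, FBXO32 and FOXO4, and TRIM63 and ASB2. KLHL41 alone made up 47.7 ± 3.56% of the summed RPKM of the 10 genes in GM samples and 59.0 ± 4.03% in DM samples.

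Within the FOXO genes, the share of FOXO1 was lower and that of FOXO3 higher in DM samples. FOXO1 held 55.7, 58.4 and 56.9% of the summed FOXO RPKM in GM samples and 48.9, 48.5 and 52.8% in DM samples, while FOXO3 held 33.9, 32.0 and 31.3% and then 41.5, 41.9 and 37.1%. Both sets of values were apart between the groups. The share of FOXO4 was 10.6 ± 1.08% and 9.76 ± 0.240%, with overlap. Within the MuRF genes, TRIM54 held 24.4, 18.1 and 28.0% of the summed RPKM in GM samples and 32.8, 29.4 and 36.4% in DM samples, without overlap. TRIM63 held 4.67 ± 0.984% and 3.11 ± 0.480%, also without overlap, and TRIM55 held 71.8 ± 4.15% and 64.0 ± 3.88%, with overlap. Exact two-sided permutation tests gave p = 0.1 for each share that was apart and 0.2 for FOXO4 and TRIM55, and 0.15 and 0.2 after Benjamini-Hochberg adjustment over the 6 shares, so none could pass 0.05 in this design.

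**Figure D3:**
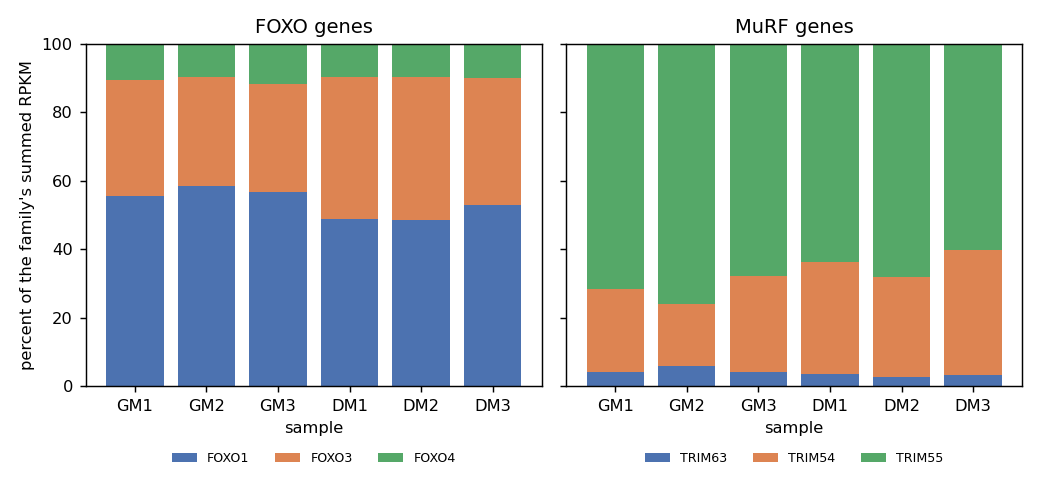
Share of each gene in the summed RPKM of its family, in percent, for the 6 samples. Left, FOXO1, FOXO3 and FOXO4, and right, TRIM63, TRIM54 and TRIM55. FOXO3 takes a larger share in each DM sample than in any GM sample, TRIM54 likewise, and TRIM55 stays the largest part of the MuRF genes throughout.

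Each of the genes but TRIM55 has 1 transcript in the deposited mRNA table, with the same counts as the gene row. TRIM55 has 2, of 1787 and 1866 bases, whose counts add up to more than the gene row, so reads were counted on both. All 11 transcripts were called higher, as were 15.5% of tested transcripts. The longer TRIM55 transcript (ENSBTAT00000047065) had 83.8, 84.4 and 86.4% of the counts of the shorter one (ENSBTAT00000027975) in GM samples and 81.0, 78.8 and 78.3% in DM samples. The groups did not overlap, with p = 0.1 by the exact two-sided permutation test.

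The lists that follow are to be read against all tested genes, of which 15.0% were called higher and 10.3% lower. Of 31 tested genes of insulin and AKT signaling and of FOXO modification, edgeR called 3 higher and 1 lower, shares not far from those of all genes. The median log2 change was -0.10. IRS2, a docking protein of the insulin receptor, rose by 1.31 on the log2 scale (DM over GM, adjusted p = 1.86e-07 by edgeR). SGK1, a kinase related to AKT, rose by 1.26 (6.45e-06) and PIK3R1, the regulatory subunit of PI3 kinase, by 1.14 (1.12e-06). PIK3CB, a catalytic subunit, fell by 1.21 (0.00123), but by 0.97 and below the threshold without DM replicate 3. With no minimum fold change, 10 of the 31 were higher and 14 lower at an adjusted p under 0.05 by edgeR. Over all 15576 tested genes 9813 reached that in either direction. AKT1 (log2 change -0.42, adjusted p = 0.000167 by edgeR) and IGF1R (-0.43, 0.000161) were lower in every DM sample. They were not called because they missed the minimum fold change. INSR (-0.14, 0.271) was not called and its groups overlapped.

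Among 37 tested genes listed as FOXO targets or as atrogenes, 14 were called higher and 3 lower. The median log2 change was 0.48. PPARGC1A, a coactivator of mitochondrial genes, had 14, 6 and 13 counts in GM samples and 144, 143 and 116 in DM samples (log2 change 3.77 ± 0.33, SE). KLF15, a glucocorticoid-induced factor, had 14, 10 and 14 and then 117, 139 and 158 counts (log2 change 3.60 ± 0.27, SE). SESN3, a stress protein that restrains mTORC1, had a log2 change of 2.83 and CDKN1A, the cell cycle inhibitor p21, one of 2.31. SESN1 and SQSTM1 were also called but overlap other listed genes. The genes called lower were CITED2, a transcriptional coregulator (log2 change -1.24), BNIP3, a mitophagy receptor (-1.68), and CAT, catalase (-1.07, and -0.95 without DM replicate 3, where it was not called). Without DM replicate 3 the genes called lower still came to 3, with ATG4B in place of CAT. ATG4B was at -0.95 with all samples and at -1.01 without DM replicate 3. With no minimum fold change, 24 of the 37 were higher and 8 lower at an adjusted p under 0.05 by edgeR. Of all 15576 tested genes, 9813 reached that in either direction. FBXO30 (0.44), FBXO21 (0.32) and PDK4 (0.22), also known from wasting muscle, were not called. FBXO30 and FBXO21 missed the minimum fold change (adjusted p = 0.0028 and 0.00548 by edgeR), and PDK4 missed both thresholds (0.667).

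Of 28 other tested muscle ubiquitin ligases and their relatives, 3 were called higher and 2 lower, near the shares of all genes. The median log2 change was 0.05. TRIM72 (MG53, a membrane repair protein) rose by 1.90 on the log2 scale (adjusted p = 1.45e-07 by edgeR), while SMURF2 and NEDD4L, HECT ligases, fell by 1.85 (9.66e-09) and by 1.35 (3.87e-08). FBXO40, a muscle F-box protein, had no counts in GM samples and 3, 0 and 8 in DM samples, which is too few for a fold change, and its call was lost with DESeq2, with library size alone and when any sample but DM replicate 2 was left out. FBXL22, another F-box protein, had 1, 0 and 4 counts in GM samples and 31, 25 and 34 in DM samples.

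The relatives of the KLHL and ASB adaptors gave 9 called higher and none lower of 23 tested. The median log2 change was 0.50. ASB5 went from 24, 18 and 29 counts in GM samples to 643, 798 and 973 in DM samples (log2 change 5.24 ± 0.21, SE). ASB9, an adaptor that binds creatine kinase, rose by 4.46 and KLHL31, a kelch protein of the sarcomere, by 3.44, both on the log2 scale. ASB4 had 0, 1 and 1 counts in GM samples and 85, 97 and 137 in DM samples, and it overlaps another listed gene. ASB16 was not called without DM replicate 3.

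In the general ubiquitin machinery, none of the 31 tested genes for ubiquitin, E1, E2 and cullin subunits was called by edgeR in either direction, nor by DESeq2. In the edgeR fit none reached the minimum fold change. An adjusted p under 0.05 by edgeR was reached by 23, of which 8 were higher and 15 lower, and an unadjusted one by 24. The adjusted threshold was reached by 9813 of all 15576 tested genes in either direction. The median log2 change was -0.17. CUL3, the cullin of the KLHL adaptors, had a log2 change of -0.20, and CUL5, that of the ASB adaptors, one of 0.48.

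Known substrates and partners of the ligases gave 19 called higher and 1 lower of 27 tested. The median log2 change was 3.47. Most of those that rose are sarcomere proteins. MYBPC1 rose by 7.68 (adjusted p = 2.62e-09 by edgeR), MYH8 by 7.19 (5.79e-09) and CKM, muscle creatine kinase, by 6.32 (6.82e-09), all on the log2 scale. MYL3 had 1, 0 and 0 counts in GM samples and 41, 46 and 144 in DM samples, and it overlaps another listed gene. NEB (nebulin) and LMOD3 (leiomodin-3), thin filament proteins on this list, had log2 changes of 3.47 and 4.86. Of the filamins that ASB2 targets, FLNC was called lower at -1.56 and overlaps another listed gene, while FLNA (-0.34) was not called. DES, also on this list, was not called at -0.15. All of these are RNA values, which do not measure the stability or breakdown of a protein.

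**Figure D4:**
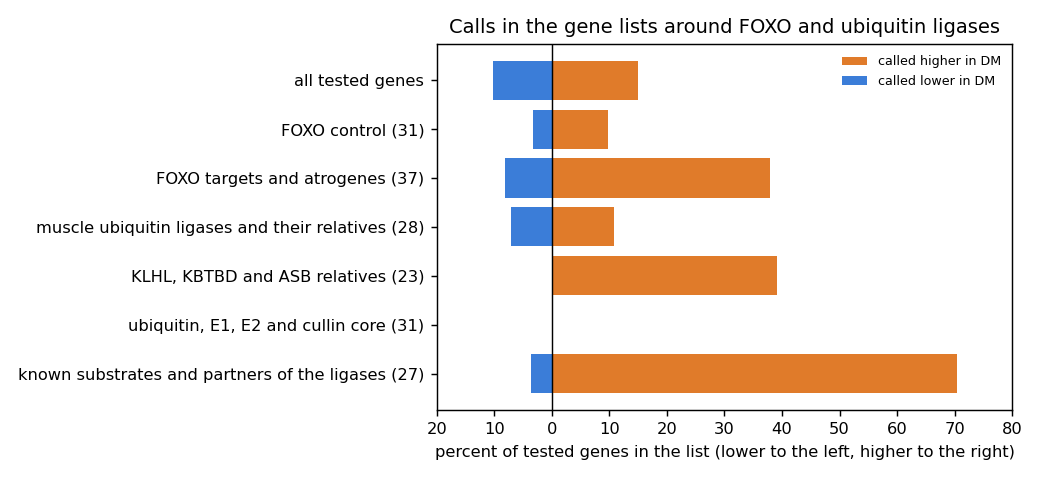
Percent of the tested genes called higher (orange, right) or lower (blue, left) in DM samples for all tested genes and for the 6 lists, with the number tested in parentheses. For the 10 genes themselves all were called higher and they are not drawn. The bars for all tested genes are 15.0 and 10.3%, and the substrate list has the longest bar to the right.

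By pattern over the 6 samples, each gene was set beside the 12459 genes that averaged at least 1 CPM, with the root mean square difference of centred log2 CPM as the measure (0 means the same pattern). Among the 3 closest to FOXO1 were VAMP8 (0.0318) and STAB1 (0.0374), and the closest to FOXO3 were CLEC3B (0.0488), FKBP5 (0.0651) and a gene listed by identifier only (0.0763). FOXO4 was closest to IL23A (0.0415), TRANK1 (0.0436) and ACSL5 (0.0491). TRIM55 lay nearest to CRYAB (0.0724), FHL1 (0.0847) and ITGB6 (0.0872), and TRIM54 to RBM43 (0.101), MYH3 (0.115) and CACNA1S (0.124). KLHL41 was closest to PDLIM3 (0.0640), CDKL4 (0.0784) and GATM (0.0867), and KLHL40 to DBP (0.0550), TRAF1 (0.0728) and C1orf54 (0.0831). FBXO32 was closest to FXYD1 (0.0747), PARP9 (0.0861) and GALNT5 (0.0903), and TRIM63 to TBC1D16 (0.0414), a gene listed by identifier only (0.0613) and ALDH4A1 (0.0629). ASB2 had no near neighbour, with PYROXD2 at 0.353 and CACNA1S at 0.365. Among the 10 genes the nearest pairs were FOXO1 with FOXO4 (0.10) and TRIM55 with KLHL41 (0.170).

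Of other cell types, 5 defining markers were near 0, while other members of their lists were not. PECAM1 of endothelium had 0 to 8 counts per sample, PTPRC of blood cells 0 to 2, SOX10 of Schwann cells 0 to 7, ADIPOQ of adipocytes 1 to 14 and NPPA of cardiomyocytes 0 to 1. Over whole lists, edgeR called 2 of 6 tested adipocyte markers higher and 1 lower, 1 of 6 endothelial markers higher and 2 lower, 1 of 4 blood and immune markers higher and 1 lower, and 1 of 4 Schwann cell and neuron markers higher. Without DM replicate 3 the adipocyte markers called higher came to 3, the immune markers called lower to 0 and the Schwann cell and neuron markers called higher to 0. Of 7 smooth muscle and pericyte markers none was called by edgeR, with 3 at an unadjusted p under 0.05, and of 3 cardiomyocyte markers 2 were called higher (MYH6 and TNNI3), their list summing to 4.35 to 7.68 CPM in GM and 54.4 to 91.0 CPM in DM samples. ACTA2 and TAGLN of smooth muscle had 45193 to 54384 and 34262 to 59104 counts per sample, and TUBB3 of neurons 1051 to 1970. TEK of endothelium rose from 48 to 65 counts in GM samples to 133 to 177 in DM samples, and CD14 of myeloid cells rose too, with 34 to 54 and then 177 to 335 counts. CD68, another myeloid marker, had 175 to 237 and then 76 to 105 counts. MYH6, which overlaps another listed gene, had 133 to 261 and then 1758 to 3245. COL1A1, a fibroblast collagen, rose by 1.54 on the log2 scale and PDGFRA, a fibroblast receptor, had 21571 to 24643 counts in GM and 24034 to 34802 in DM samples. The summed fibroblast level was higher in DM than in GM samples, as the 10 genes were. Among DM samples it was lowest in replicate 3 (128691, 117764 and 102537 CPM in replicates 1 to 3), where the 7 ligase and adaptor genes were highest. This sum is mostly collagen, and its members differed. POSTN (5894, 6904 and 13100 counts in DM replicates 1 to 3) and DPT (9632, 10005 and 12103) were highest in DM replicate 3. FAP and THY1 were not lowest there, while PDGFRA, COL1A2, COL3A1, DCN and LUM had their fewest DM counts in DM replicate 3. FOXO3 was also lowest there (37.5, 33.3 and 30.4 CPM in DM replicates 1 to 3), and FOXO1 and FOXO4 were highest in DM replicate 1. The part of the fibroblast level in the rise was not tested. MYOD1, the myogenic determination factor, had a log2 change of 0.90 and was not called, but reached 1.14 and was called without DM replicate 3. PAX7, the factor of muscle stem cells, was not called at -0.92.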

How the data were processed

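RNA-seq of 3 GM and 3 DM samples was analysed. The authors counted reads on genes and transcripts and deposited raw counts without normalization. For the alignment the paper's supplement names HISAT2 (version not given in the sources used here). The deposited RPKM values come from the same counts, scaled by the authors with the gene length and the sample's summed counts. The paper's supplement names the buffalo genome, the tables list cattle Ensembl identifiers without a build, and the submitters' processing notes name Bowtie 0.12.2, mm8 and mm9. Which aligner and which build gave the counts is not settled, and whether counting used strand is not given. Coordinates are those of the deposited table. The authors' lists of differentially expressed features (fold changes, p-values and q-values) and the ncRNA table were not used. No sample column was unmapped (0).

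Counts were tested over all genes and over all mRNA transcripts with at least 10 counts in total, with edgeR 4.0.16 in R 4.3.3 (glmQLFit, glmQLFTest, TMM normalization, Benjamini-Hochberg adjustment). A gene was called where its log2 change exceeded 1 in size with an adjusted p under 0.05. Standard errors were derived from the F statistic. The pipeline was tested on simulated data. Shares and ratios were compared with exact permutation tests in scipy 1.17.1.

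The 10 genes, the 6 pathway lists (206 entries) and the 8 marker lists were chosen with earlier results of these data known. Named from each pathway list were the 4 called genes with the largest change at a mean of at least 1 CPM, and from the marker lists the genes that define a cell type. Every other gene named in the report from these lists (such as NEB, FLNC, CAT, FBXO40, CUL3 and AKT1) was picked with its values in view. Like genes are the 3 nearest in log2 CPM (prior count 2). Some genes that these rules pick are not reported here. Replicate numbers were not used to pair the samples in the main fit. The deviations of same-numbered GM and DM samples correlated at -0.0218 to -0.00756, and those of differently numbered samples at -0.0121 to 0.0238. With 3 samples per group these values cannot show whether the numbers mark pairs. Alternatives were DESeq2 1.42.0, library size alone, DESeq2's size factors, other filters and thresholds, a replicate block and each sample left out. Detection limits are counting error only. Promoter and protein sequences were not analysed here.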

Additional observations from a re-analysis of the deposited data

How the results depend on the processing

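All 10 genes kept their direction and their call with DESeq2, library size alone, DESeq2's size factors, no filter, filterByExpr, no minimum fold change and each sample left out. The RPKM rule, which asks for at least 1 RPKM in more than 50% of samples, left out TRIM63 and ASB2, and the other 8 were called. A test against a fold change of 2 called 7. Over all tested genes, 3936 were called, against 2197 with the RPKM rule, 2293 against a fold of 2 and 9813 with no minimum fold, and 3654 to 4029 with a sample left out. With library size alone, the median of all genes moved to -0.07, 10 of the 11 transcripts were called (not that of FOXO1), and the genes called lower came to 2 for FOXO control, 5 for FOXO targets and atrogenes and 1 for the KLHL and ASB relatives. Leaving out a sample gave 0 to 1 genes called lower for FOXO control, 0 without DM replicate 3. With a replicate block, 10 genes, 11 transcripts and 3837 genes in all were called, and no call among the 10 changed. The family shares kept their direction with raw counts, with 0.1 added to each RPKM and with each sample left out. Depth limits ASB2 and TRIM63 most, with 4 to 27 and 23 to 25 counts in GM samples.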
